A study of Mus musculus with 12 samples.

Results

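The 41 genes described here encode proteins of the DNA damage checkpoint and of DNA repair. They were listed by name and by the pathway they belong to; the rule itself uses no measured level, but the list was drawn up with earlier results of these data known. Ensembl identifiers of the count table were matched to mouse symbols, which gave a symbol to 42462 of 43629 genes and found all 41 members. Messenger RNA was measured by RNA sequencing in 12 libraries of pre-T cells sorted from the thymus of C57BL/6 mice, with 4 libraries, stated to be biological replicates, in each of 3 groups. The DCKO group held DN3-like cells of mice with the genotype Zfp36l1fl/fl, Zfp36l2fl/fl, CD2cre, in which a Cre recombinase under CD2 control, active in lymphoid cells, recombines both floxed genes. The DN3b and DN3a groups held cells of control mice with the genotype Zfp36l1fl/fl, Zfp36l2fl/fl, which carry the floxed alleles but no Cre. Age was not given in the sources used here. Thymocytes that express neither CD4 nor CD8 pass from DN3a to DN3b when beta selection, a test of the newly rearranged T cell receptor beta chain, has succeeded. The DCKO libraries are labelled DN3, without a split into DN3a and DN3b. In the comparisons with DCKO, genotype and the make-up by stage therefore cannot be told apart. The products of Zfp36l1 and Zfp36l2 bind AU-rich stretches of messenger RNA and speed its decay.

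DNA damage in dividing cells is sensed by the kinases ATM, which responds to broken ends, and ATR, which responds to single-stranded DNA at stalled replication forks. They act through the kinases CHK2 and CHK1 to hold the cell cycle, and they recruit repair by homologous recombination, end joining, the Fanconi pathway, mismatch repair or single-strand break repair. In DN3 thymocytes the V(D)J recombinase itself cuts DNA at the T cell receptor beta locus, and cells that pass beta selection enter rapid division. Many repair genes are transcribed together with the DNA replication genes in cycling cells.

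The libraries held 30401159 to 41258922 counts in DCKO, 32359182 to 41664096 in DN3b and 28479157 to 45975678 in DN3a. Levels are given as CPM, counts scaled to a common library size after TMM adjustment of that size. The factors ran from 0.816 to 0.940 in DCKO, from 0.950 to 1.01 in DN3b and from 1.08 to 1.17 in DN3a. Zfp36l1, one of the deleted genes, stood at 1.65, 1.64, 2.25 and 3.80 CPM in DCKO, 23.3, 12.1, 12.1 and 9.63 CPM in DN3b and 43.9, 33.2, 27.1 and 31.6 CPM in DN3a. Zfp36l2, the other, stood at 45.4, 49.3, 87.9 and 72.9 CPM in DCKO, 287, 319.5, 382 and 467 CPM in DN3b and 341, 555, 585 and 685 CPM in DN3a. For both genes all DCKO libraries lay below all control libraries, and reads remained in each DCKO library. In DCKO library 1 a single feature without a symbol took 9.02% of the counts, against at most 2.61% for the leading feature of each other library. Many members were lowest in the libraries numbered 1 of both control stages, 32 of 41 among the DN3b libraries and 31 of 41 among the DN3a libraries. Library 4 was highest for 22 of 41 members in DN3b and for 30 of 41 in DN3a. This order was not counted over all genes, so a shift of the whole library cannot be told apart from one of the members. Results that rest on the libraries numbered 1 are given with and without them below.

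Defining markers of DN3 thymocytes (Ptcra, Rag1, Il2ra, Cd3e, Cd3g, Bcl11b, Notch1 and Lck) were present in every library, with a summed level of 7011 to 11608 CPM in DCKO, 3530 to 5993 CPM in DN3b and 6499 to 9434 CPM in DN3a. Rag1 was the largest part of the DCKO sum (2091 to 6799 CPM), while Il2ra stood at 115 to 299 CPM in DCKO and 516 to 946 CPM in DN3a. Of these 8 genes, 1 was called higher and 1 lower in DCKO over DN3a, against 30.7% and 29.5% of all genes. In DN3b over DN3a 0 were higher and 6 lower, against 27.4% and 25.2%, and in DCKO over DN3b 3 were higher and 0 lower, against 10.3% and 8.58%. The sum of 9 myeloid markers was 11.2 to 26.3 CPM in DCKO, 4.91 to 13.2 CPM in DN3b and 23.5 to 34.0 CPM in DN3a, and the sum of 6 cytotoxic lymphocyte markers was 18.0 to 29.5, 6.42 to 27.7 and 54.7 to 58.0 CPM in the same order of groups. The sum of 6 B cell markers was 18.7 to 24.7 CPM in DCKO, 9.76 to 32.1 CPM in DN3b and 42.7 to 58.4 CPM in DN3a, nearly all of it Cd79b, with Pax5 at 0 in all 4 DN3b libraries. S100a9 was at 0 in all DN3b libraries, Mpo in all DN3a libraries and Pdgfra in all 12 libraries. In DCKO libraries 1 to 4 S100a9 stood at 4.88, 0, 0.05 and 2.93 CPM and S100a8 at 3.47, 0, 0 and 1.12 CPM. Both stood at no more than 0.04 CPM in any control library. Of the myeloid list, 4 of 9 genes passed the filter on low counts, and 1 was called higher and 0 lower in DCKO over DN3b, 0 higher and 1 lower in DCKO over DN3a, and 0 higher and 3 lower in DN3b over DN3a. Of the B cell and cytotoxic lists 1 of 6 genes each passed, Cd79b and Nkg7, and each was called lower than DN3a in DCKO and in DN3b and not called between DCKO and DN3b. The summed level of other marker lists was 214 to 255 CPM in DCKO, 83.7 to 233 CPM in DN3b and 111 to 286 CPM in DN3a for CD4 and CD8 expressing thymocytes, mostly Ccr9, and 90.5 to 154, 82.8 to 165 and 195 to 270 CPM for thymic stroma. Nearly all of the stroma sum was Epcam and Pecam1. Lists for early progenitors, gamma-delta T cells, dendritic cells and erythroid cells summed to at most 51.8, 126, 30.8 and 28.1 CPM in any library, and Trdc, Trgc1 and Trgc2 had no identifier in the table used. The part of these cells in the results was not tested. In bulk samples fewer cells of a type and less RNA per cell cannot be told apart.

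All 41 members passed the filter on low counts, which kept 13944 genes. The 3 comparisons share groups: DCKO and DN3b are each set against the same 4 DN3a libraries, and DCKO over DN3b is the difference of the other two, so their values stand side by side and their likeness is not a result. A member or gene is called where edgeR's quasi-likelihood test gives a Benjamini-Hochberg adjusted p under 0.05 over all genes tested, and each log2 fold change is given with its standard error (SE).

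Between DCKO and DN3b few members differed. Rad17, Rpa3, Tipin and Fancm were higher in DCKO and Atrip and Mdc1 were lower. These were 4 of 41 called higher, against 10.3% of all genes tested, and 2 of 41 called lower, against 8.58% of all genes. The median log2 fold change of the members was 0.01, and that of all genes tested was -0.02, with no member reaching a 2-fold difference. All DCKO libraries lay above all DN3b libraries for 5 members, the 4 called and Msh6, against 11.0% of all genes, and below them for 1, Atrip, against 9.87% of all genes. A share of members called that lies near or under the share of all genes is not a result about the members as a set, and the single genes carry this comparison. Under each of the 22 alternative settings tried, 2 of the 6 calls held, those of Rad17 and Rpa3, and the count of members called lay between 2 and 9. With upper quartile scaling the all-gene median was -0.10, 3 members were higher and 4 lower, and 1051 genes were called higher and 1644 lower, in place of 1438 and 1197.

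**Figure D1:**
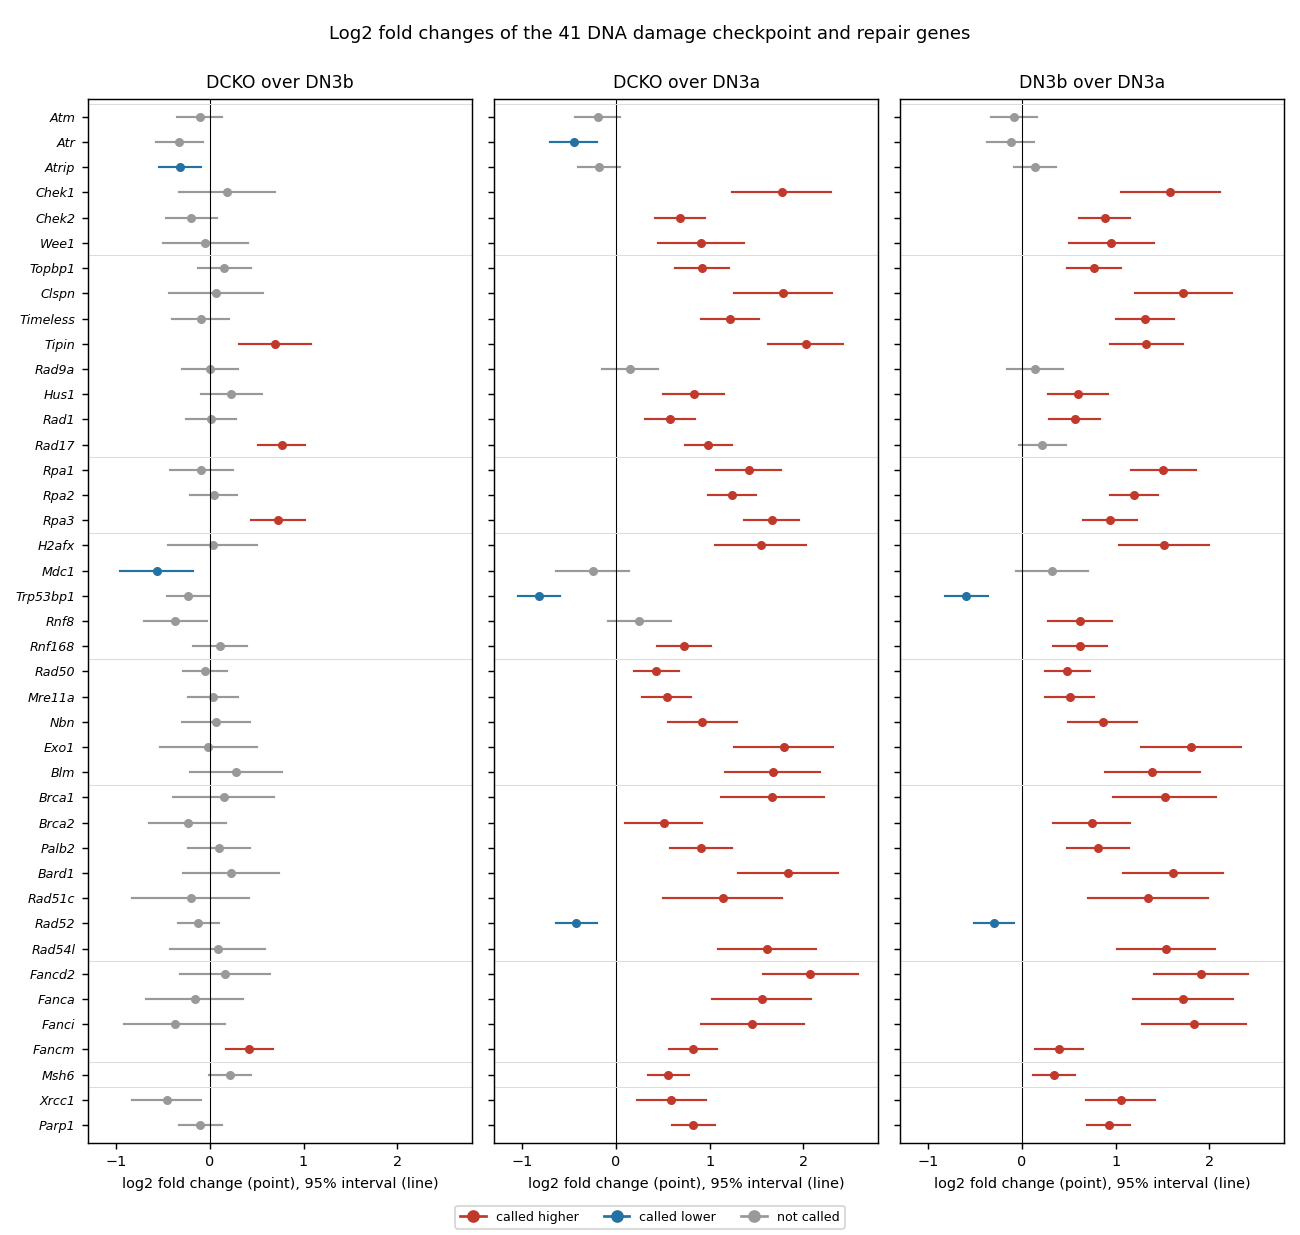
Log2 fold changes of the 41 members (points) with 95% intervals (lines) in 3 comparisons, one panel each, with the genes grouped by role from top to bottom. In DCKO over DN3b most points lie near 0 and 6 members are called, while in DCKO over DN3a and in DN3b over DN3a 33 members each are called higher.

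Between DCKO and DN3a, 33 members rose and 3 fell. The largest rises were those of Fancd2 (4.21-fold), Tipin (4.07-fold) and Bard1 (3.58-fold), and the genes that fell were Trp53bp1, Atr and Rad52. These 33 of 41 stand against 30.7% of all genes called higher, and the 3 of 41 against 29.5% called lower. All DCKO libraries lay above all DN3a libraries for the same 33 members, against 27.8% of all genes, and below them for the same 3, against 27.1%. The median log2 fold change was 0.91 over the members and -0.04 over all genes tested, and 17 members differed by at least 2-fold. Atm, Atrip, Rad9a, Mdc1 and Rnf8 were not called. With upper quartile scaling, under which the all-gene median was -0.26, 30 members were higher and 6 lower, and the genes called split into 3119 higher and 5528 lower in place of 4275 and 4116; Atm, Atrip and Mdc1 then joined the lower ones.

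Between DN3b and DN3a, again 33 members rose, and 2 fell. Fancd2 (3.77-fold), Fanci (3.56-fold) and Exo1 (3.49-fold) rose most, and Trp53bp1 and Rad52 fell. The 33 of 41 stand against 27.4% of all genes called higher and the 2 of 41 against 25.2% called lower. All DN3b libraries lay above all DN3a libraries for 29 members, against 24.8% of all genes, and below them for 2, against 23.0%. The median log2 fold change was 0.88 over the members and -0.02 over all genes tested, and 17 members differed by at least 2-fold. Same-numbered DN3b and DN3a libraries moved together, and 35 members were higher in DN3b within each of the 4 number pairs. Trp53bp1 and Rad52 were lower in each, and Atm, Atr, Atrip and Rad9a were higher in 1 to 3 of the 4 pairs. The share of all genes higher or lower within each of the 4 pairs was not counted, so these counts describe the members alone. Unless a block is named, SEs and adjusted p of DN3b over DN3a come from the fit with group alone, which leaves this pairing out. With the replicate number as a block, Mdc1 was also called higher (log2 0.28, adjusted p = 0.0133), which made 34 members higher and 2 lower. Of 13715 genes tested with the block, 4529 were called higher and 4704 lower. With upper quartile scaling the all-gene median was -0.17, 31 members were higher and 2 lower, and 3021 genes were called higher and 4536 lower, in place of 3815 and 3519.

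The summed level of the 41 members was 5089 to 5428 CPM in DCKO, 4019 to 5564 CPM in DN3b and 2468 to 3249 CPM in DN3a. Within DN3b and within DN3a library 1 was lowest and library 4 highest, and the DCKO libraries lay close together. Genes of the replication fork moved beside them: the sum of 25 such genes (among them the Mcm and Gins helicase subunits, Cdc6 and Cdt1) was 8861 to 9449 CPM in DCKO, 6655 to 10235 CPM in DN3b and 2692 to 4218 CPM in DN3a. All 25 rose in DCKO over DN3a (median log2 1.40) and in DN3b over DN3a (median 1.48), against 30.7% and 27.4% of all genes. In DCKO over DN3b 1 rose, the loading factor Cdc6 (log2 0.74 ± 0.24, adjusted p = 0.0447), and 0 fell, against 10.3% and 8.58% of all genes. The sum of 20 genes of mitosis was 6928 to 7985 CPM in DCKO, 4189 to 8107 CPM in DN3b and 645 to 2791 CPM in DN3a. All 20 rose over DN3a in both groups (median log2 2.20 in DCKO and 2.09 in DN3b), against the same 30.7% and 27.4% of all genes. Between DCKO and DN3b 0 of these 20 genes were called, with 0 of them at an unadjusted p under 0.05. Their part in the members' changes was not tested. Leaving out library 1 of both control stages gave 33 members higher and 5 lower in DCKO over DN3a, 34 and 2 in DN3b over DN3a, and 4 and 5 in DCKO over DN3b, where Atr, Brca2 and Fanci were then called lower (log2 -0.41, -0.41 and -0.57). Of 14061 genes then tested, 4279 were called higher and 4210 lower in DCKO over DN3a. The counts were 3910 and 3754 in DN3b over DN3a, and 1617 and 1206 in DCKO over DN3b.

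**Figure D2:**
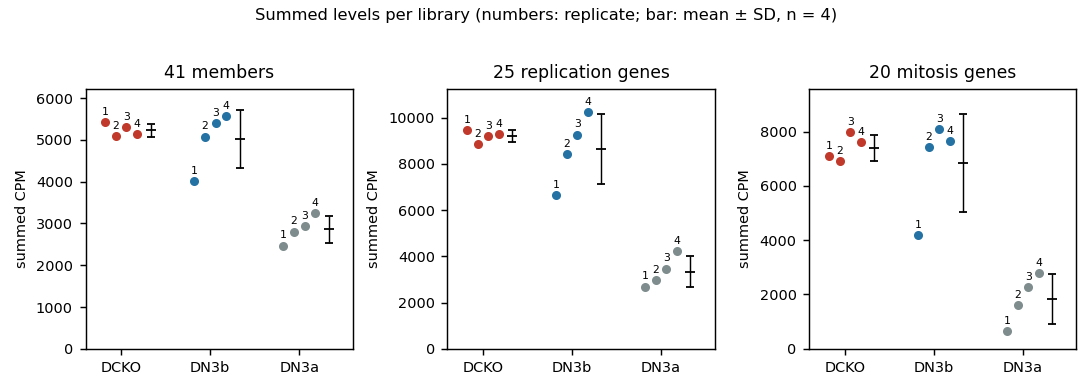
Summed CPM per library of the 41 members, of 25 replication fork genes and of 20 mitosis genes, with the replicate number beside each point and the mean and SD of 4 libraries as a bar. In each panel the DN3a libraries lie lowest, and DN3b library 1 lies below the other DN3b libraries.

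**Figure D3:**
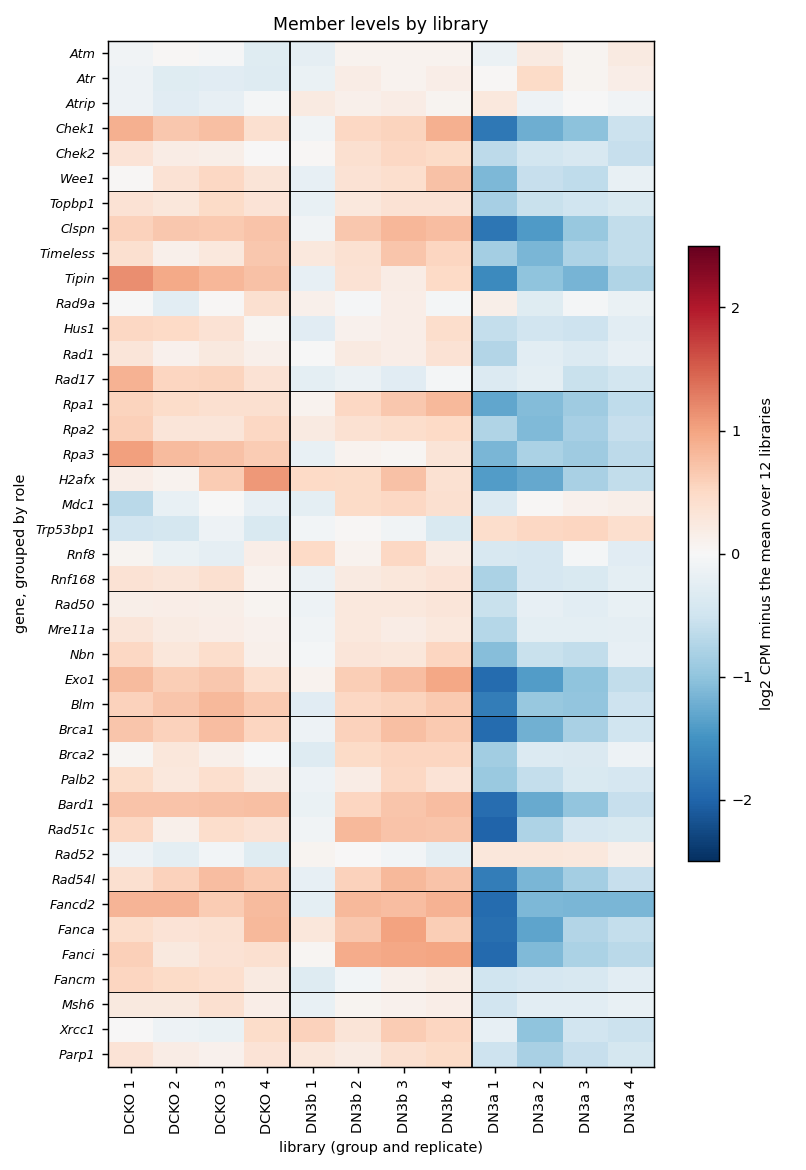
Level of each member in each of the 12 libraries as log2 CPM minus that gene's mean over all libraries, with genes grouped by role. Most rows are low in DN3a and high in DCKO and DN3b, and the rows of Trp53bp1 and Rad52 run the other way.

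Promoter sequence was read for 33 of the 41 members from RefSeq (build GRCm38.p6), from 250 bases before the annotated start to 50 after it; Wee1, Tipin, Rad9a, H2afx, Rad50, Nbn, Exo1 and Fancd2 had no entry in the table used. Searched on both strands were 4 E2F-like motifs, TTTCCCGC, TTCCCGCC, TTTGGCGC and TTTCGCGC, of which the leading pair overlap each other, and the letters CCAAT and TTTGAA. E2F factors are known to drive genes of DNA synthesis, and CCAAT is bound by the factor NF-Y. At least 1 E2F-like motif stood in 12 of 33 members (36.4%), against 750 of 9779 genes tested (7.67%), and CCAAT in 18 of 33 (54.5%), against 43.3% of genes tested. TTTGAA, the letters of the CHR element of cell cycle genes, stood in 3 of 33 (9.09%), against 14.3% of genes tested. The 12 with an E2F-like motif were Bard1, Brca2, Chek1, Chek2, Clspn, Fancm, Mdc1, Msh6, Rad51c, Rnf168, Rnf8 and Topbp1. No E2F-like motif stood in the windows of Trp53bp1, Rad52, Atr, Atrip or Atm, nor in those of Brca1, Rpa3 or Rad17, and a match or its absence is a description of these letters alone. The windows of Clspn (chr4:126556730-126557029, plus strand), which rose in both groups over DN3a, of Fancm (chr12:65075353-65075652, plus strand), Rpa3 (chr6:8259092-8259391, minus strand) and Rad17 (chr13:100651012-100651311, minus strand), which were higher in DCKO than in DN3b, of Mdc1 (chr17:35841248-35841547, plus strand), which was lower there, and of Trp53bp1 (chr2:121271358-121271657, minus strand), which fell in both groups relative to DN3a, are shown 5′ to 3′ on the gene's strand, with E2F-like motifs and CCAAT (or its reverse complement) in capitals. None of these windows holds TTTGAA, and those of Rad17 and Trp53bp1 hold none of the motifs and so have no capitals.
Clspn: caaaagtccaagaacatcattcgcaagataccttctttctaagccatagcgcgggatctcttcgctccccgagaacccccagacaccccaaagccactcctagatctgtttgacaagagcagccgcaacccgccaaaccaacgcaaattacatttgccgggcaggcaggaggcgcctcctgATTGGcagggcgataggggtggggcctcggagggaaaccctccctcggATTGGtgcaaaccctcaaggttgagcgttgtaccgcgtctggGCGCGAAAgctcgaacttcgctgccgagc
Fancm: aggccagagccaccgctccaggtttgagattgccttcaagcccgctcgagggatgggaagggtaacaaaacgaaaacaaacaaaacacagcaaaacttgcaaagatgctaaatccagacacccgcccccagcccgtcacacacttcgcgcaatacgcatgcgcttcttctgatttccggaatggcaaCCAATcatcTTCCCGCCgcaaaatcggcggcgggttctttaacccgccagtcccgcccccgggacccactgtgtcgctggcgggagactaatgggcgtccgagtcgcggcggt
Rpa3: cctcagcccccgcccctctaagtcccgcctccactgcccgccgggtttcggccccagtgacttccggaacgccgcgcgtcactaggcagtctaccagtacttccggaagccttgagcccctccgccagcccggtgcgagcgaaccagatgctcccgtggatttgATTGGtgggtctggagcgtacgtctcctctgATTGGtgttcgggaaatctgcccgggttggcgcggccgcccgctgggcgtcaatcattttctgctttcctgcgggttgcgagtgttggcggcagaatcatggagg
Rad17: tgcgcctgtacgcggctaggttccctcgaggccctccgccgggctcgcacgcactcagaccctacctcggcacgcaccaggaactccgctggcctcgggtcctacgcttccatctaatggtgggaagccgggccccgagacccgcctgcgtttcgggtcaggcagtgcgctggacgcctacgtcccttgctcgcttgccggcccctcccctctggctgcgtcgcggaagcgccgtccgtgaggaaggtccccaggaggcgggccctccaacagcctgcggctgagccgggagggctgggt
Mdc1: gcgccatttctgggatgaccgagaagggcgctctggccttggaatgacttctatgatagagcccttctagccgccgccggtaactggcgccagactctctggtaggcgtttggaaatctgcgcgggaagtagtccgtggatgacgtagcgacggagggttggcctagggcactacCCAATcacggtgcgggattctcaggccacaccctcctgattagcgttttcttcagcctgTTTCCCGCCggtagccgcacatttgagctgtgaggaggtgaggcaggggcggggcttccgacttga
Trp53bp1: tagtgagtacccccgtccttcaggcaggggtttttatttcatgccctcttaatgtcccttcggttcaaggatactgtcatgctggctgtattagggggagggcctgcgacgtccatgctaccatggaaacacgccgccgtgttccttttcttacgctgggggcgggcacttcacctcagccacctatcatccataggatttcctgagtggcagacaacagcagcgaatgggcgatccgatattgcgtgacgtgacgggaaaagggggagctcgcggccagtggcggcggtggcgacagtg

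The apical kinases did not follow the bulk of the members. Atm, the kinase that responds to broken ends, stood at 162, 174, 168 and 139 CPM in DCKO, 146, 183, 182 and 182 CPM in DN3b and 155, 200.0, 179.6 and 202 CPM in DN3a. The 3 groups overlapped, and Atm was not called in DCKO over DN3a (log2 -0.20 ± 0.11, adjusted p = 0.148), in DCKO over DN3b (log2 -0.11 ± 0.11, adjusted p = 0.532) or in DN3b over DN3a (log2 -0.09 ± 0.11, adjusted p = 0.534). It was called lower in DCKO over DN3a without DN3a library 1 (log2 -0.28, adjusted p = 0.0481) or library 1 of both control stages (0.0191). With upper quartile scaling Atm was called lower there too (0.00654, in a range of 0.00654 to 0.364 over all alternatives). Atr, the kinase that responds to stalled forks, stood at 85.8, 75.5, 77.0 and 74.7 CPM in DCKO, 82.8, 106, 98.8 and 105 CPM in DN3b and 94.6, 131, 98.2 and 105 CPM in DN3a. All DCKO libraries were below all DN3a libraries and 3 of 4 below all DN3b libraries, and Atr fell in DCKO over DN3a (log2 -0.45 ± 0.12, adjusted p = 0.00468). Against DN3b it was not called (log2 -0.33 ± 0.12, adjusted p = 0.0652). Atr was called lower there without DN3b library 1 (0.0284), DN3a library 2 (0.0358) or library 1 of both control stages (0.0178). The same held with upper quartile scaling (0.0344) and with the 8 libraries of the comparison alone (0.0494), in a range of 0.0178 to 0.192 over all alternatives. Atrip, the partner through which ATR finds single-stranded DNA coated with RPA, stood at 35.9, 32.0, 34.0 and 37.7 CPM in DCKO, 45.5, 42.7, 44.7 and 41.2 CPM in DN3b and 47.1, 35.6, 38.5 and 36.9 CPM in DN3a. Each DCKO library was below each DN3b library (log2 -0.32 ± 0.10, adjusted p = 0.0489), and that call was the weakest of the 6. It was lost without DCKO library 1, 2 or 3, DN3b library 1, 2 or 3 or DN3a library 3 or 4 (adjusted p = 0.0605 to 0.122, in a range of 0.0193 to 0.270 over all alternatives). Atrip was also not called with DESeq2 size factors (0.0571), no filter on low counts (0.0908), a replicate block (0.120) or without DCKO libraries 1 and 2 together (0.270). Exons of Atrip share 16.0% of their bases with Trex1 on the same strand, so reads of both genes cannot be told apart there.

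The effector kinases rose at the DN3b stage and in DCKO. Chek1, which carries the ATR signal to the cell cycle, stood at 175, 151, 157 and 124 CPM in DCKO, 88.7, 135, 138 and 173 CPM in DN3b and 27.1, 40.5, 45.9 and 64.7 CPM in DN3a. All 8 DCKO and DN3b libraries were above all DN3a libraries, by 3.41-fold in DCKO (log2 1.77 ± 0.24, adjusted p = 6.17e-05) and by 3-fold in DN3b (log2 1.58 ± 0.24, adjusted p = 0.000222). Chek2, which carries the ATM signal, stood at 37.7, 33.8, 33.0 and 30.0 CPM in DCKO, 30.3, 39.3, 42.7 and 41.7 CPM in DN3b and 18.9, 21.8, 22.8 and 20.1 CPM in DN3a. It was higher than in DN3a in DCKO (log2 0.69 ± 0.12, adjusted p = 0.000439) and in DN3b (log2 0.88 ± 0.12, adjusted p = 0.000133), without overlap in either. On a scale per exon length (TPM, by all annotated exons of a gene merged, not by 1 transcript), the log2 ratio of Chek1 to Chek2 was 1.54 ± 0.09 in DCKO, 1.14 ± 0.21 in DN3b and 0.40 ± 0.49 in DN3a (SD, n = 4). Between DCKO and DN3b neither was called, with 95% intervals of the log2 difference of -0.33 to 0.70 for Chek1 and -0.46 to 0.07 for Chek2. Wee1, a kinase that holds back entry into mitosis, rose over DN3a in DCKO (1.87-fold) and DN3b (1.94-fold), with overlap between DN3b and DN3a.

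**Figure D4:**
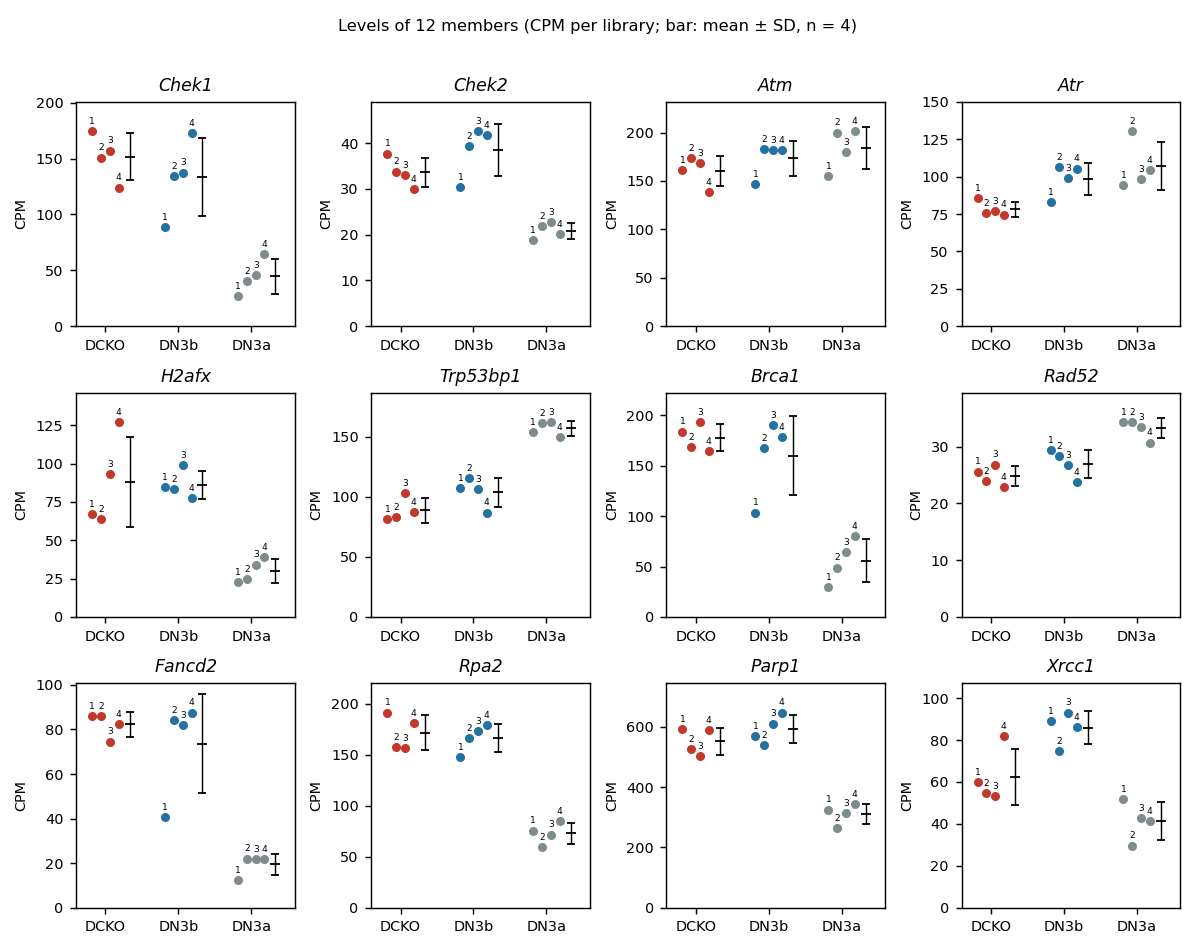
CPM in each library of 12 members across the checkpoint and repair pathways, with replicate numbers beside the points and the mean and SD of 4 libraries as a bar. Chek1, Brca1, Fancd2 and H2afx show DN3a libraries below all others, Trp53bp1 and Rad52 show them above all others, and Atm overlaps in all 3 groups.

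Among the genes that activate ATR and protect the fork, 7 of 8 rose in DCKO over DN3a and 6 of 8 in DN3b over DN3a, with 0 lower in both, against 30.7% and 27.4% of all genes called higher in these comparisons. The clamp loader stood out. Rad17, which loads the Rad9a-Hus1-Rad1 clamp onto damaged DNA (GRCm38 chr13:100617164-100651051), stood at 98.1, 78.4, 79.1 and 69.1 CPM in DCKO, 45.5, 48.5, 44.1 and 52.3 CPM in DN3b and 42.8, 45.4, 36.6 and 39.4 CPM in DN3a. All DCKO libraries were above all 8 control libraries, while DN3b and DN3a overlapped. Rad17 was 1.7-fold higher in DCKO than in DN3b (log2 0.77 ± 0.12, adjusted p = 0.000778) and 1.98-fold higher than in DN3a (log2 0.98 ± 0.12, adjusted p = 2.05e-05), and was not called in DN3b over DN3a (log2 0.21 ± 0.12, adjusted p = 0.134). Over all alternatives its adjusted p in DCKO over DN3b ran from 1.79e-07 to 0.0255. The genes of the clamp itself were not called between DCKO and DN3b, where the 95% intervals of the log2 difference were -0.29 to 0.30 for Rad9a, -0.09 to 0.55 for Hus1 and -0.26 to 0.28 for Rad1. Hus1 and Rad1 rose over DN3a in DCKO (1.78-fold and 1.49-fold) and in DN3b (1.51-fold and 1.48-fold), and Rad9a, whose exons share 9.53% of their bases with Ppp1ca on the opposite strand, was called in no comparison. The log2 TPM ratio of Rad17 to Rad1 was 0.84 to 1.17 in the DCKO libraries, 0.17 to 0.38 in DN3b and 0.37 to 1.01 in DN3a, so DCKO and DN3b did not overlap.

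Tipin, which pairs with Timeless to steady the fork (chr9:64281581-64305424), stood at 329, 280.2, 259.8 and 244 CPM in DCKO, 127, 188, 166 and 207 CPM in DN3b and 48.6, 72.9, 65.3 and 86.5 CPM in DN3a. The groups did not overlap, with DCKO highest and DN3a lowest. Tipin was 1.62-fold higher in DCKO than in DN3b (log2 0.70 ± 0.18, adjusted p = 0.0174). Tipin was not called without DCKO library 1 (0.0680) or DN3b library 3 (0.0601), nor with a replicate block (0.0660). Nor was it called without DCKO libraries 1 and 2 together (0.178, in a range of 0.00305 to 0.178 over all alternatives). It rose over DN3a in DCKO (log2 2.02 ± 0.19, adjusted p = 4.82e-06) and in DN3b (log2 1.33 ± 0.18, adjusted p = 0.00011). Timeless, its partner, averaged 116 ± 19.4 CPM in DCKO, 124 ± 16.1 CPM in DN3b and 50.0 ± 7.30 CPM in DN3a (SD, n = 4), and was not called between DCKO and DN3b (95% interval of log2 -0.40 to 0.21). The log2 TPM ratio of Timeless to Tipin was -3.24 to -2.49 in DCKO, -2.40 to -1.91 in DN3b and -2.56 to -1.68 in DN3a. Clspn, the adaptor through which ATR reaches CHK1, and Topbp1, which switches ATR on, rose over DN3a in DCKO (3.44-fold and 1.89-fold) and in DN3b (3.3-fold and 1.7-fold). Neither was called between DCKO and DN3b.

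**Figure D5:**
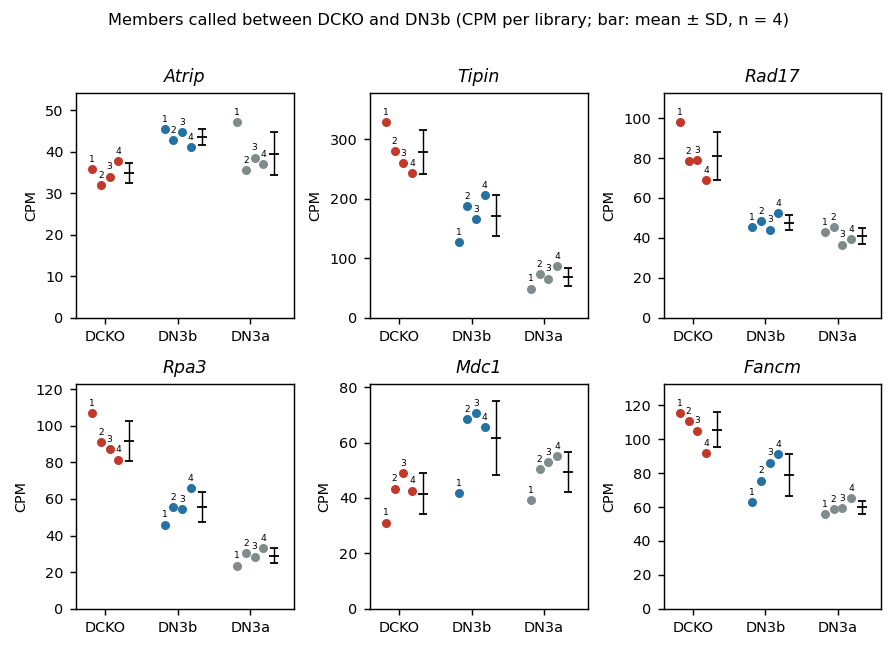
CPM in each library of the 6 members called between DCKO and DN3b, with replicate numbers beside the points and the mean and SD of 4 libraries as a bar. DCKO libraries lie above all DN3b libraries for Tipin, Rad17, Rpa3 and Fancm and below them for Atrip, and DN3b library 1 of Mdc1 lies among the DCKO libraries.

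RPA, the trimer that coats single-stranded DNA, rose as a whole over DN3a in both groups, and its smallest subunit rose further in DCKO. Rpa2 stood at 191, 157, 157 and 181 CPM in DCKO, 147, 166, 173 and 179 CPM in DN3b and 75.6, 59.2, 71.7 and 84.7 CPM in DN3a. The DCKO and DN3b libraries overlapped each other and lay above all DN3a libraries (log2 1.24 ± 0.12, adjusted p = 6.01e-06 in DCKO, log2 1.19 ± 0.12, adjusted p = 2.83e-05 in DN3b). Rpa3 (chr6:8255936-8259173) stood at 107, 90.8, 87.2 and 81.5 CPM in DCKO, 46.0, 55.4, 54.4 and 65.9 CPM in DN3b and 23.6, 30.4, 28.5 and 33.2 CPM in DN3a. The 3 groups did not overlap, and Rpa3 was 1.65-fold higher in DCKO than in DN3b (log2 0.72 ± 0.13, adjusted p = 0.00274; 2.57e-05 to 0.0486 over all alternatives), 3.16-fold higher in DCKO than in DN3a and 1.91-fold higher in DN3b than in DN3a. Rpa1 and Rpa2 were not called between DCKO and DN3b, with 95% intervals of log2 of -0.43 to 0.25 and -0.21 to 0.29. The log2 TPM ratio of Rpa3 to Rpa2 was 0.25 to 0.60 in DCKO, -0.28 to -0.05 in DN3b and -0.28 to 0.44 in DN3a, without overlap between DCKO and DN3b.

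At broken ends H2AX is phosphorylated and bound by MDC1, which recruits the ubiquitin ligases RNF8 and RNF168 and then 53BP1, and these 5 genes did not move together. H2afx, which encodes H2AX, stood at 67.2, 63.8, 93.1 and 127 CPM in DCKO, 84.8, 83.3, 98.9 and 77.5 CPM in DN3b and 22.7, 24.6, 34.2 and 39.0 CPM in DN3a. All DCKO and DN3b libraries were above all DN3a libraries (log2 1.54 ± 0.22, adjusted p = 8.73e-05 in DCKO, log2 1.52 ± 0.22, adjusted p = 0.000176 in DN3b), with DCKO libraries the most spread. Its exons share 10.2% of their bases with a miRNA gene on the opposite strand. Mdc1 (chr17:35841515-35859670) stood at 31.1, 43.3, 48.9 and 42.7 CPM in DCKO, 41.8, 68.5, 70.6 and 65.6 CPM in DN3b and 39.2, 50.3, 53.0 and 55.0 CPM in DN3a. DN3b library 1 lay among the DCKO libraries and the other 3 DN3b libraries above them. Mdc1 was lower in DCKO than in DN3b (log2 -0.57 ± 0.18, adjusted p = 0.0424). That call was lost without DCKO library 1, 2 or 4, DN3b library 2, 3 or 4 or DN3a library 2, 3 or 4 (0.0507 to 0.104, in a range of 0.00256 to 0.282 over all alternatives). Mdc1 was also not called with limma-voom (0.0585), the 8 libraries of the comparison alone (0.0582) or without DCKO libraries 1 and 2 together (0.282). Against DN3a it was called neither in DCKO (log2 -0.25 ± 0.18, adjusted p = 0.243) nor in DN3b (log2 0.32 ± 0.18, adjusted p = 0.15). In DCKO it was called lower with upper quartile scaling (0.0382), a replicate block (0.0443) or without library 1 of both control stages (0.0326). In DN3b it was called higher without DN3b library 1 (0.0183) or library 1 of both control stages (0.0396) and with a replicate block (0.0133). The range in DN3b was 0.0133 to 0.434 over all alternatives.

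Trp53bp1, which encodes 53BP1, the protein that shields broken ends from resection, stood at 81.4, 82.9, 103 and 87.1 CPM in DCKO, 107, 115, 107 and 86.9 CPM in DN3b and 154, 162, 162 and 149.8 CPM in DN3a. Each DN3a library was above each of the 8 others, and Trp53bp1 fell in DCKO (log2 -0.82 ± 0.10, adjusted p = 3.4e-05) and in DN3b (log2 -0.59 ± 0.10, adjusted p = 0.000517), the largest fall of a member in both. Between DCKO and DN3b it was not called (log2 -0.23 ± 0.10, adjusted p = 0.139), but was called lower without DN3b library 4 (0.0348; 0.0348 to 0.628 over all alternatives). Its exons share 15.0% of their bases with Tubgcp4 on the opposite strand. Rnf168 rose over DN3a in DCKO (1.66-fold) and in DN3b (1.54-fold). Rnf8, the lowest member per length of merged exons in each group (2.11 ± 0.260 TPM in DCKO, 2.84 ± 0.396 in DN3b and 2.17 ± 0.227 in DN3a), rose in DN3b (log2 0.62 ± 0.16, adjusted p = 0.00523) and was not called in DCKO over DN3a (log2 0.25 ± 0.16, adjusted p = 0.181) or DCKO over DN3b (log2 -0.37 ± 0.16, adjusted p = 0.117). Its exons share 13.2% of their bases with the protein-coding gene Gm28043 on the same strand, where reads of both cannot be told apart.

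All 5 genes of break sensing and resection rose over DN3a in both groups, where 30.7% of all genes rose in DCKO and 27.4% in DN3b, and none was called between DCKO and DN3b by edgeR, with 0 of 5 at an unadjusted p under 0.05. Exo1, an exonuclease that cuts back broken ends, stood at 143, 127, 132 and 112 CPM in DCKO, 87.8, 128, 142 and 163 CPM in DN3b and 21.9, 31.5, 41.2 and 54.4 CPM in DN3a. All DCKO and DN3b libraries were above all DN3a libraries, and Exo1 rose 3.45-fold in DCKO (log2 1.79 ± 0.25, adjusted p = 5.94e-05) and 3.49-fold in DN3b (log2 1.80 ± 0.25, adjusted p = 0.000107). Blm, a helicase that works with it, rose 3.19-fold and 2.62-fold in the same groups. The complex of Mre11a, Rad50 and Nbn, which holds and trims broken ends, rose with log2 fold changes in DCKO over DN3a of 0.54 for Mre11a, 0.43 for Rad50 and 0.92 for Nbn, and in DN3b over DN3a of 0.51, 0.48 and 0.86. The call of Rad50 in DCKO over DN3a was lost with upper quartile scaling (0.121; 0.00114 to 0.121 over all alternatives), against an adjusted p of 0.00441 with TMM.

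In homologous recombination 6 of 7 members rose over DN3a in both groups, against 30.7% of all genes in DCKO and 27.4% in DN3b, and Rad52 fell, against 29.5% and 25.2% of all genes called lower. Brca1, which promotes resection, stood at 184, 168, 194 and 165 CPM in DCKO, 104, 168, 191 and 179 CPM in DN3b and 29.8, 49.0, 64.6 and 79.9 CPM in DN3a. Its partner Bard1 stood at 73.6, 73.6, 74.2 and 75.3 CPM in DCKO, 39.8, 64.8, 72.8 and 76.1 CPM in DN3b and 11.9, 18.7, 22.5 and 29.8 CPM in DN3a. For both genes all DCKO and DN3b libraries lay above all DN3a libraries. Brca1 rose 3.18-fold in DCKO (log2 1.67 ± 0.26, adjusted p = 0.000131) and 2.87-fold in DN3b (log2 1.52 ± 0.26, adjusted p = 0.000393). Bard1 rose 3.58-fold in DCKO (log2 1.84 ± 0.25, adjusted p = 4.98e-05) and 3.06-fold in DN3b (log2 1.61 ± 0.25, adjusted p = 0.000209), and its 4 DCKO libraries lay close together. The log2 TPM ratio of Brca1 to Bard1 was 0.67 ± 0.12 in DCKO, 0.75 ± 0.07 in DN3b and 0.82 ± 0.08 in DN3a (SD, n = 4).

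Rad54l, a motor of strand exchange, and Rad51c, which also acts in homologous recombination, rose over DN3a in DCKO (3.07-fold and 2.2-fold) and in DN3b (2.9-fold and 2.53-fold), as did Palb2, which joins BRCA1 to BRCA2 (1.87-fold in DCKO and 1.75-fold in DN3b). Exons of Rad54l share 15.4% of their bases with Lrrc41 on the opposite strand. Brca2, which acts with PALB2 in recombination, rose in both groups (log2 0.51 ± 0.19, adjusted p = 0.0332 in DCKO, log2 0.75 ± 0.19, adjusted p = 0.00562 in DN3b). Its call in DCKO was lost without DCKO library 1, 2 or 3, DN3b library 2 or 3, or DN3a library 1, 2 or 3 (0.0504 to 0.102) and with upper quartile scaling (0.201; 0.00529 to 0.201 over all alternatives). Rad52, which anneals single strands, stood at 25.6, 23.9, 26.8 and 22.9 CPM in DCKO, 29.3, 28.3, 26.7 and 23.7 CPM in DN3b and 34.3, 34.4, 33.5 and 30.7 CPM in DN3a. All DN3a libraries were above all others, and Rad52 fell in DCKO (log2 -0.42 ± 0.10, adjusted p = 0.00287) and in DN3b (log2 -0.30 ± 0.10, adjusted p = 0.0237). The call in DN3b was lost without DN3b library 4 or DN3a library 2 or 3, and with no filter on low counts (0.00293 to 0.0704 over all alternatives).

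All 4 Fanconi members, which act on crosslinked DNA, rose over DN3a in both groups, against the same shares of all genes (30.7% in DCKO and 27.4% in DN3b). Fancd2, the protein that is ubiquitinated to start crosslink repair, stood at 86.0, 86.1, 74.5 and 82.3 CPM in DCKO, 40.5, 84.1, 82.1 and 87.6 CPM in DN3b and 12.5, 22.1, 21.7 and 21.8 CPM in DN3a. DN3b library 1 was far below the other 3 DN3b libraries and still above all DN3a libraries, and DN3a library 1 was far below the other 3 DN3a libraries. Fancd2 had the largest rise of all members, in DCKO (log2 2.07 ± 0.23, adjusted p = 1.5e-05) and in DN3b (log2 1.91 ± 0.23, adjusted p = 5.81e-05). Its partner Fanci stood at 61.6, 48.3, 52.2 and 53.6 CPM in DCKO, 41.9, 77.8, 79.3 and 80.9 CPM in DN3b and 10.6, 19.0, 23.5 and 25.4 CPM in DN3a. The rise was 2.74-fold in DCKO (log2 1.46 ± 0.25, adjusted p = 0.000327) and 3.56-fold in DN3b (log2 1.83 ± 0.26, adjusted p = 0.000124), and 3 of 4 DN3b libraries lay above all DCKO libraries. The log2 TPM ratio of Fancd2 to Fanci was 0.02 to 0.38 in DCKO, -0.51 to -0.34 in DN3b and -0.68 to -0.22 in DN3a, without overlap between DCKO and the controls. Exons of Fanci share 16.0% of their bases with Polg on the opposite strand, where reads can be told apart only if strand was counted, which is not stated, and exons of Fanca share 10.5% with Zfp276 on the opposite strand. Fanca, of the core complex that adds the ubiquitin, rose 2.94-fold in DCKO and 3.28-fold in DN3b.

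Fancm, a DNA motor that anchors the core complex (chr12:65075603-65132058), stood at 115, 111, 105 and 92.0 CPM in DCKO, 62.9, 75.7, 86.3 and 91.0 CPM in DN3b and 56.1, 58.8, 59.6 and 65.4 CPM in DN3a. All DCKO libraries were above all DN3b libraries, the nearest ones close together, and DN3b overlapped DN3a. Fancm was 1.34-fold higher in DCKO than in DN3b (log2 0.42 ± 0.12, adjusted p = 0.0255). That call was lost without DCKO library 1, 2 or 3 or DN3b library 1 or 2 (0.0511 to 0.0882, in a range of 0.00971 to 0.251 over all alternatives). Fancm was also not called with upper quartile scaling (0.0512), the 8 libraries of the comparison alone (0.0552), a replicate block (0.135) or without DCKO libraries 1 and 2 together (0.251). It rose over DN3a in DCKO (log2 0.82 ± 0.12, adjusted p = 8.38e-05) and in DN3b (log2 0.40 ± 0.12, adjusted p = 0.0128), the last lost with upper quartile scaling (0.0772; 0.00158 to 0.0772 over all alternatives).

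Msh6, which recognises mismatched bases, stood at 461, 459.8, 514 and 437 CPM in DCKO, 344, 409, 421 and 437 CPM in DN3b and 279, 323, 325 and 343 CPM in DN3a. It was the most abundant member per length of merged exons in DN3a and the second in the other groups. All DCKO libraries were above all DN3b libraries and all DN3b above all DN3a, with nearly touching values at both edges. Msh6 rose in DCKO (log2 0.56 ± 0.10, adjusted p = 0.000472) and DN3b (log2 0.34 ± 0.10, adjusted p = 0.0133) over DN3a and was not called between DCKO and DN3b (log2 0.22 ± 0.10, adjusted p = 0.156). The call in DN3b was lost with upper quartile scaling (0.117; 0.00163 to 0.117 over all alternatives). Parp1, which marks single-strand breaks with ADP-ribose, stood at 592, 527, 502 and 589 CPM in DCKO, 569, 540.4, 611 and 648 CPM in DN3b and 326, 265, 314 and 344 CPM in DN3a. Its DCKO and DN3b libraries lay above all DN3a libraries (log2 0.82 ± 0.11, adjusted p = 3.75e-05 in DCKO, log2 0.92 ± 0.11, adjusted p = 4.52e-05 in DN3b) and overlapped each other. Xrcc1, the scaffold of single-strand break repair, stood at 59.8, 54.7, 53.3 and 81.7 CPM in DCKO, 89.2, 74.8, 93.1 and 86.2 CPM in DN3b and 51.8, 29.7, 42.9 and 41.5 CPM in DN3a. All DCKO and DN3b libraries lay above all DN3a libraries, and 3 of 4 DCKO libraries lay below all DN3b libraries. Xrcc1 rose in DN3b (log2 1.05 ± 0.17, adjusted p = 0.000321) and in DCKO (log2 0.59 ± 0.17, adjusted p = 0.00909; lost with upper quartile scaling, 0.0657, in a range of 0.00318 to 0.0657). Between DCKO and DN3b it was not called (log2 -0.46 ± 0.17, adjusted p = 0.0749). Xrcc1 was called lower there without DCKO library 4 (0.0166) or DN3a library 2 (0.0427). It was also called lower with upper quartile scaling (0.0376) and with the 8 libraries of the comparison alone (0.0497), in a range of 0.0166 to 0.407 over all alternatives. The authors' deposited table called it lower as well (adjusted p = 0.038). That table otherwise called the same 6 members as here between DCKO and DN3b, in the same directions.

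Per exon length the members spanned a wide range. In DCKO Tipin (436 ± 45.2 TPM), Msh6 (317 ± 27.7) and Parp1 (306 ± 20.9) stood highest, in DN3b Parp1 (341 ± 20.8), Msh6 (283 ± 26.1) and Tipin (280.4 ± 55.1), and in DN3a Msh6 (263 ± 21.3), Parp1 (212 ± 17.5) and Tipin (131 ± 29.5), as mean TPM and SD of 4 libraries. Msh6 and Parp1 in DCKO and Msh6 and Tipin in DN3b differed by less than the SDs of their libraries. Atr was 39th of 41 in DCKO (9.72 ± 0.399 TPM) and DN3b (12.7 ± 1.41) and 29th in DN3a (16.3 ± 2.98). Ranks between genes depend on the length used, which for Atr was 23629 bases of merged exons. The coefficient of variation of CPM between replicates had a median over members of 9.65% in DCKO, 15.8% in DN3b and 15.3% in DN3a.

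AU-rich stretches were counted in the annotated 3′ UTR of 1 coding transcript per gene (GENCODE M21, GRCm38), since the deleted proteins are known to bind them. The letters TATTTAT stood in 11 of 41 members (26.8%), against 27.7% of 11741 genes tested, and the shorter TATTTA in 48.8% of members, against 45.7% of genes. Among the members higher in DCKO than in DN3b, Rad17 and Fancm each held a TATTTAT, and Tipin held 2 and Rpa3 1 of the shorter TATTTA. Neither Atrip nor Mdc1 held one, in UTRs of 94 and 2040 bases. Bard1, Exo1, Hus1, Palb2, Rad51c, Rad9a and Rnf8 held a TATTTAT and were not called between DCKO and DN3b. Trp53bp1, which fell in DCKO and DN3b relative to DN3a, and Clspn, which rose, also held a TATTTAT and were not called between DCKO and DN3b. The sites of Rad17, Fancm, Clspn and Trp53bp1 are shown with 11 bases on each side, 5′ to 3′ on the gene's strand with the match in capitals. They lie, in that order, at chr13:100617447-100617475 (minus strand), chr12:65130535-65130563 (plus strand), chr4:126593398-126593426 (plus strand) and chr2:121196195-121196223 (minus strand). A match is a description of letters and not evidence of binding.
Rad17: tcagtgcttagTATTTATttagtcttgtg
Fancm: tatatacttttTATTTATagactatatat
Clspn: aacctgaccacTATTTATtgctgctttgg
Trp53bp1: cctgggtatagTATTTATtatagtctagc

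Of 138 further genes of the same pathways, listed by textbook role in 9 lists, 136 passed the filter. In DCKO over DN3b 8 of 136 rose, against 10.3% of all genes, and 17 fell, against 8.58% of all genes, with a median log2 fold change of 0.02, against -0.02 over all genes. The counts of single lists below are to be read against the same shares. In nucleotide excision repair 1 of 20 rose and 5 fell, among them Ddb2, which recognises ultraviolet damage (log2 -0.52 ± 0.09, adjusted p = 0.00168), and Ercc4, a subunit of the nuclease that cuts beside the lesion (log2 -0.52 ± 0.09, adjusted p = 0.00179). In end joining 2 of 9 rose, Xrcc4 (log2 0.80 ± 0.13, adjusted p = 0.00115) and Lig4 (log2 0.91 ± 0.17, adjusted p = 0.00269), the scaffold and the ligase of the pathway, and 2 fell, the polymerase genes Polm (log2 -2.07 ± 0.42, adjusted p = 0.00499) and Poll (log2 -1.92 ± 0.46, adjusted p = 0.0122), named after their values were seen. Polm and Poll were the 2 of the 136 genes that differed by at least 2-fold between DCKO and DN3b. In base excision and single-strand break repair 2 of 24 rose and 4 fell; the glycosylase Mutyh fell (log2 -0.68 ± 0.16, adjusted p = 0.0112) and the glycosylase Tdg rose (log2 0.41 ± 0.11, adjusted p = 0.0209). Among other checkpoint genes 1 of 16 rose, the phosphatase Cdc25a (log2 0.56 ± 0.12, adjusted p = 0.00568), and 2 fell, among them the fork remodeller Smarcal1 (log2 -0.43 ± 0.09, adjusted p = 0.0071).

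In the other lists few genes were called between DCKO and DN3b. In mismatch repair 0 of 8 rose and 2 fell, Mlh3 (log2 -0.41 ± 0.12, adjusted p = 0.0331) and Msh5 (log2 -0.71 ± 0.22, adjusted p = 0.042). Of further homologous recombination genes 1 of 27 rose, Swi5 (log2 0.31 ± 0.09, adjusted p = 0.0225), and 1 fell, Xrcc3 (log2 -0.42 ± 0.13, adjusted p = 0.0409). Of further Fanconi genes 0 of 12 rose and 1 fell, the nuclease Fan1 (log2 -0.63 ± 0.13, adjusted p = 0.00648). In translesion synthesis 1 of 10 rose, the polymerase Polk (log2 0.51 ± 0.12, adjusted p = 0.0114), and 0 fell. Of further genes of break-site chromatin 0 of 10 were called by edgeR, with 4 at an unadjusted p under 0.05; Abraxas1 and Rnf169 had the smallest p (log2 0.32 ± 0.11, adjusted p = 0.0564 and log2 -0.32 ± 0.11, adjusted p = 0.0568).

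Against DN3a more of the further genes rose than fell. In DCKO over DN3a 80 of 136 rose and 26 fell, against 30.7% and 29.5% of all genes, with a median log2 of 0.39, against -0.04 over all genes. In DN3b over DN3a 72 rose and 23 fell, against 27.4% and 25.2% of all genes, with a median of 0.45, against -0.02 over all genes. Further checkpoint genes rose in 13 of 16 cases in each, with 2 lower in DCKO and 1 lower in DN3b: Cdc25a rose in DCKO (log2 1.48 ± 0.12, adjusted p = 2.93e-06), and the clamp loader subunit genes Rfc5 (log2 1.25 ± 0.13, adjusted p = 3.55e-05) and Rfc2 (log2 1.08 ± 0.12, adjusted p = 4.63e-05) in DN3b. Further homologous recombination genes rose in 21 of 27 cases in DCKO and 20 in DN3b, with 3 lower in each, and the nuclease Dna2 had the smallest p in DCKO (log2 1.69 ± 0.16, adjusted p = 5.08e-06). Ung, which removes uracil from DNA, rose in DCKO (log2 1.52 ± 0.14, adjusted p = 5.63e-06) and in DN3b (log2 1.41 ± 0.14, adjusted p = 3.15e-05), within a list of 24 of which 12 rose and 4 fell in DCKO and 11 rose and 3 fell in DN3b. In end joining 3 of 9 rose and 3 fell in DCKO, and 2 rose and 4 fell in DN3b. Dclre1c, the nuclease that opens hairpins in V(D)J recombination, fell in DCKO (log2 -1.03 ± 0.19, adjusted p = 0.000454) and in DN3b (log2 -1.08 ± 0.19, adjusted p = 0.000484).

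The remaining lists are likewise to be read against 30.7% of all genes called higher and 29.5% lower in DCKO over DN3a and 27.4% and 25.2% in DN3b over DN3a. In nucleotide excision repair 10 of 20 rose and 6 fell in DCKO over DN3a and 9 rose and 6 fell in DN3b over DN3a, the falls near those shares, with Gtf2h4, a subunit of the TFIIH complex, among the rises (log2 1.23 ± 0.10, adjusted p = 2.71e-06 in DCKO, log2 1.03 ± 0.10, adjusted p = 2.58e-05 in DN3b). In translesion synthesis 5 of 10 rose and 4 fell in DCKO and 3 rose and 4 fell in DN3b, and the polymerase Polh rose in both (log2 0.92 ± 0.11, adjusted p = 1.6e-05 in DCKO, log2 0.90 ± 0.11, adjusted p = 4.72e-05 in DN3b). In mismatch repair 2 of 8 rose and 2 fell in DCKO and 1 rose and 1 fell in DN3b; Mlh3 fell in both (log2 -0.83 ± 0.12, adjusted p = 8.71e-05 in DCKO, log2 -0.43 ± 0.12, adjusted p = 0.00971 in DN3b). Of further Fanconi genes 7 of 12 rose and 1 fell in DCKO and 8 rose and 0 fell in DN3b, with Fancb rising in both (log2 1.86 ± 0.21, adjusted p = 1.31e-05 in DCKO, log2 1.38 ± 0.20, adjusted p = 0.000173 in DN3b). Of further genes of break-site chromatin 7 of 10 rose and 1 fell in DCKO and 5 rose and 1 fell in DN3b; Paxip1 rose in both (log2 0.97 ± 0.12, adjusted p = 2.71e-05 in DCKO, log2 0.97 ± 0.12, adjusted p = 6.22e-05 in DN3b).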

How the data were processed

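Per the labels' protocols, libraries were stranded, of total RNA depleted of ribosomal RNA, from cells sorted by flow cytometry. Tools named in the submitters' processing notes are TopHat2 2.0.12, Trim Galore, HTSeq and DESeq2 1.6.3, with GRCm38 as build. How strand was counted, and against which annotation release, is not given in the sources used here. The values used are counts of reads per gene that the authors deposited, 1 column per library. The authors also deposited comparison tables with log2 fold changes, Wald scores, mean normalized signal and p-values, of which the log2 fold changes and p-values were set beside the results here.

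Counts were tested with edgeR 4.0.16 (quasi-likelihood, TMM, two-sided) in R 4.3.3 on all 12 libraries with group as the only term, after edgeR's expression filter with a minimum count of 10, and p-values were adjusted by Benjamini-Hochberg over 13944 genes. The script was tested on simulated data. Tables and figures were made with Python 3.11.15, pandas 2.3.3 and matplotlib 3.10.9. Every library held at least 28479157 counts. No pair of libraries of a group agreed within sampling noise. Where the labels do not name separate animals, p-values measure the spread between the libraries as deposited. The members and gene lists were chosen with earlier results of these data known. Values of every library are given for members called in DCKO over DN3b, for the 3 largest rises and all falls over DN3a, and for a fixed set across the roles; of the other pathway lists, the genes with the smallest p are named.

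Same-numbered DN3b and DN3a libraries deviated from their group means together (r = 0.44, 0.56, 0.35 and 0.52 across genes for numbers 1 to 4), and each number's best partner was itself, so these numbers were taken to pair the libraries, from the data. Tried were 22 alternatives: DESeq2 size factors, upper quartile scaling, 2 other count filters, DESeq2 1.42.0, limma-voom 3.58.1, the 8 libraries of a comparison alone, a replicate block, each library left out, DCKO libraries 1 and 2 left out together and, chosen after seeing the data, library 1 of both control stages left out. Promoters came from RefSeq and UTRs from GENCODE M21, and no strand or annotation check of the original counting was made.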

Additional observations from a re-analysis of the deposited data

Results flagged for a closer look

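In 7 of 123 combinations of member and group, 1 library stood far from the other 3, and chance flags about 1 in 20 such groups. All 7 were a library numbered 1 of a control stage and all lay below the others. In DN3b library 1 Atm stood at 146.4 CPM, against 182 to 183 CPM in the other DN3b libraries, and Rad50 at 120 CPM, against 156 to 160 CPM. Brca2 stood there at 44.6 CPM, against 78.4 to 81.8 CPM, Fancd2 at 40.53 CPM, against 82.1 to 87.6 CPM, and Fanci at 41.88 CPM, against 77.8 to 80.9 CPM. In DN3a library 1 Mre11a stood at 56.52 CPM, against 79.1 to 79.3 CPM in the other DN3a libraries, and Fancd2 at 12.54 CPM, against 21.7 to 22.1 CPM. Without library 1 of both control stages, Brca2 and Fanci were called lower in DCKO over DN3b (adjusted p = 0.0105 and 0.00506, edgeR).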

How the results depend on the processing

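No call of a member reversed under any of the 22 alternatives. In DCKO over DN3b 853 member values kept their side of the threshold, 37 lost it and 12 gained it; in DCKO over DN3a 883 kept it, 12 lost it and 7 gained it; in DN3b over DN3a 893 kept it, 6 lost it and 3 gained it. Genes called in DCKO over DN3b numbered 2635, and 950 with DCKO libraries 1 and 2 left out together; members called numbered 6 and then 2. Leaving out single libraries gave 1601 to 3249 genes and 2 to 7 members: without DCKO library 1 1730 genes and 2 members, without DCKO library 2 1654 and 3, without DN3b library 2 1670 and 3, and without DN3b library 3 1601 and 3. The counts over DN3a stayed within 1.5 times under each alternative. Leaving out library 1 of both control stages, chosen after seeing the data, gave 2823, 8489 and 7664 genes in DCKO over DN3b, DCKO over DN3a and DN3b over DN3a. The cause of these differences was not tested.

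With a replicate block, DCKO over DN3b gave 1062 genes and 3 members, DCKO over DN3a 7648 genes and 37 members, and DN3b over DN3a 9233 genes and 36 members. The DCKO numbers did not pair with either control stage (r from -0.26 to 0.12), so those libraries share only a number.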
